A study of Saccharomyces cerevisiae with 8 samples.

Results

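The genes described here build and control RNA polymerases I and III of budding yeast (Saccharomyces cerevisiae). They comprise 19 polymerase subunits, 16 transcription factors and the repressor MAF1. They were chosen by function, as array features whose systematic name is the locus of a listed gene, a rule that uses no measured value. The members and the lists compared with them were nonetheless chosen with earlier results of these data known. All 36 were found among the 6225 genes on the arrays, and all 36 were among the 5650 genes tested. The cells were S288C, the strain behind the yeast reference genome, kept in minimal medium as a batch culture. The first group was cells in exponential growth, with 1 array recorded at each of 16, 17, 19, 20, 21, 22, 23 and 24 h. The second was S288C cells aged 64 h, whose RNA was the common partner on every array. The labels name no mutation, drug or other treatment in either group. Growing cells carried the dye Cy5 and the 64 h cells Cy3, so a positive log2 ratio means a higher level in growing cells.

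RNA polymerase I makes the precursor of the large ribosomal RNAs from the repeated rDNA, and RNA polymerase III makes 5S rRNA, transfer RNAs and other small RNAs. Each enzyme has subunits of its own, and both also use a pair of assembly subunits that no other polymerase has. At the rDNA promoter the upstream activating factor, the core factor and Rrn3 recruit polymerase I, while TFIIIC and TFIIIB recruit polymerase III. Maf1 binds polymerase III and silences it when nutrients run short. The messenger RNAs of all these proteins are made by RNA polymerase II, so the arrays report the mRNA of the machinery and not the output of polymerase I or III.

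The share of spots clearly above background ran from 84.1% to 91.6% in the Cy5 channel and from 89.5% to 91.1% in the Cy3 channel. No member was saturated, and 35 of the 36 were above background in both channels on all arrays; the exception, RRN10, was above background in Cy5 on 7 of 8. The glucose-fed markers HXT1, HXT3 and MIG2 were all higher in growing cells, and the starvation markers HSP12, CTT1, HSP30, ADH2 and PCK1 were all lower, in the direction of the labels. The array recorded at 20 h stood apart: the median of the 3 glucose-fed markers was 0.34 there, against 2.04 to 4.94 on the others. Scanner ratios, centred per gene within each slide, were correlated across genes with the columns of the authors' table. Apart from the files recorded at 20 h and 24 h, each file matched its own column best. The correlation was 0.62 for 21 h and 0.89 to 0.97 for the others. The scanner file recorded at 20 h correlated with its own column at -0.48 and with the 24 h column at 0.97. The file recorded at 24 h correlated with its own column at -0.38 and with the 20 h column at 0.92. Time results are therefore given 3 times: with the files as recorded, from the 6 arrays left when these are dropped, and with the files of 20 h and 24 h exchanged. Whether the arrays come from separate cultures is not in the labels, so the p-values rest on array-to-array scatter that may be technical. Precision is limited by the number of arrays.

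The first comparison set the mRNA of the machinery in growing cells against that in 64 h cells. Each array was normalized to its own typical ratio, so levels here are relative to the other mRNAs and are not amounts per cell. On that scale growing cells had more mRNA for nearly all polymerase subunits, by up to 3.1-fold. The polymerase I subunits RPA34, RPA43, RPA49 and RPA12 led the list. The transcription factors were mixed and their ratios smaller. MAF1, the repressor of polymerase III, was 1.94-fold lower in growing cells. With limma, 26 of the 36 members were higher (adjusted p under 0.05), against 40.3% of all genes tested, and 3 were lower, against 42.6%. The lower ones were MAF1, RRN3 and BRF1, and 7 members did not pass. The test sets the 8 arrays against a single 64 h RNA, so it leaves out the spread of 64 h cells and keeps any dye bias, since dyes were not swapped. In bulk RNA, fewer cells holding a transcript and less of it per cell cannot be told apart.

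**Figure D1:**
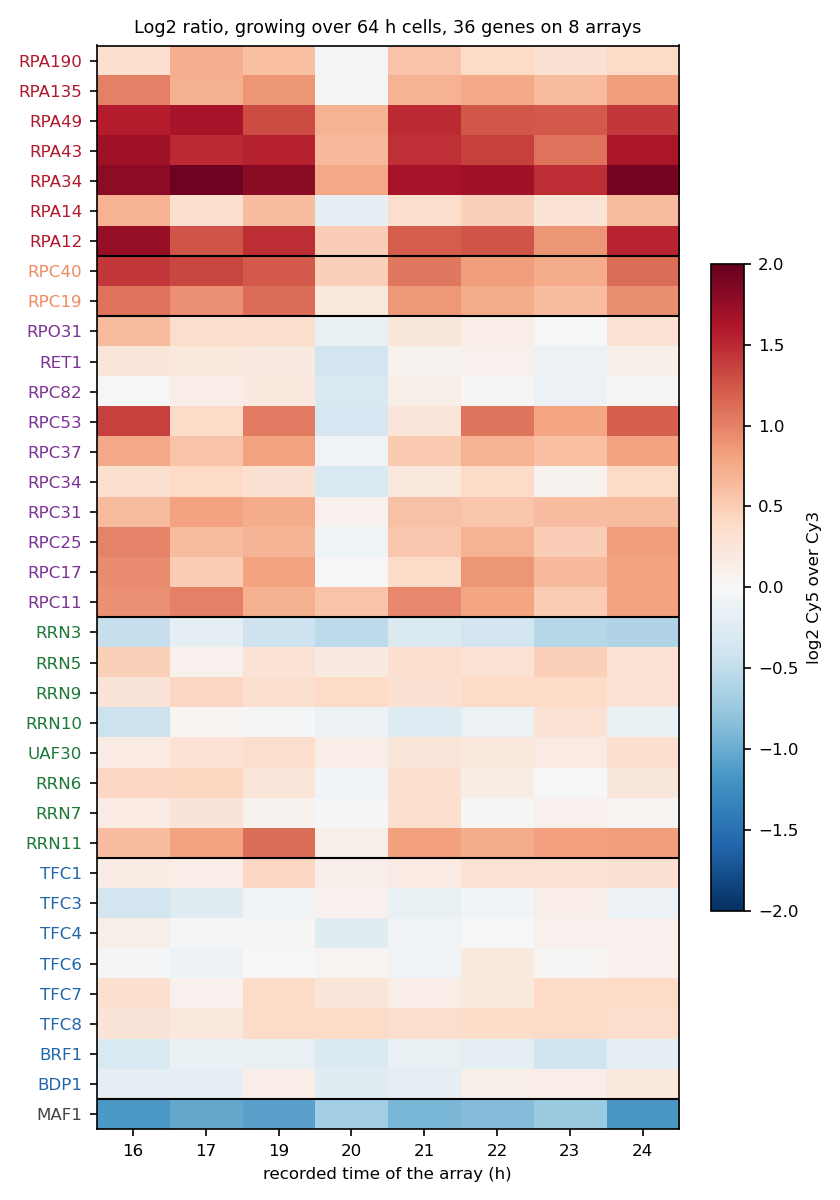
Log2 ratio of growing over 64 h cells for each of the 36 members (rows, coloured and ruled off by role in the order polymerase I subunits, shared subunits, polymerase III subunits, polymerase I factors, polymerase III factors, MAF1) on the 8 arrays (columns, by recorded time in h). Red is higher in growing cells; RPA34, RPA43, RPA49 and RPA12 are the darkest rows, the column recorded at 20 h is the palest for subunits, and MAF1 is blue on every array.

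All 7 polymerase I subunits were higher in growing cells, against 40.3% of all genes tested. The median of their mean log2 ratios was 1.23, against -0.02 over all genes tested. RPA34 (YJL148W), which pairs with Rpa49 in a subcomplex that aids initiation and elongation, had log2 ratios of 1.78, 1.95, 1.81, 0.78, 1.65, 1.68, 1.47 and 1.92 in order of recorded time. All 8 were well above 0, the one recorded at 20 h being the lowest. Its mean was 1.63 ± 0.12 (SE, n = 8; limma adjusted p = 1.1e-06), a 3.1-fold difference. RPA43 (YOR340C), the stalk subunit that receives Rrn3, had 1.70, 1.49, 1.54, 0.66, 1.46, 1.37, 1.08 and 1.63, again with the array recorded at 20 h lowest. Its mean was 1.37 ± 0.11 (SE, n = 8; limma adjusted p = 1.7e-06), or 2.58-fold. RPA49 (YNL248C), the partner of Rpa34, had 1.57, 1.64, 1.30, 0.69, 1.49, 1.24, 1.23 and 1.41. The mean was 1.32 ± 0.09 (SE, n = 8; limma adjusted p = 7.6e-07), or 2.50-fold.

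RPA12 (YJR063W), the zinc-binding subunit needed for RNA cleavage, had log2 ratios of 1.75, 1.26, 1.47, 0.50, 1.22, 1.26, 0.89 and 1.52. Its mean of 1.23 ± 0.12 (SE, n = 8; limma adjusted p = 7.4e-06) was 2.35-fold. The genes of the catalytic core had lower ratios than these 4, though still above 0. RPA190 (YOR341W), the largest subunit, had 0.34, 0.73, 0.61, -0.04, 0.57, 0.38, 0.31 and 0.39, above 0 on 7 of 8 arrays. Its mean was 0.41 ± 0.08 (SE, n = 8; limma adjusted p = 0.00072). RPA135 (YPR010C), the second-largest subunit, had 1.01, 0.71, 0.88, 0.03, 0.70, 0.76, 0.63 and 0.84. All were above 0, and the mean was 0.69 ± 0.10 (SE, n = 8; limma adjusted p = 8.8e-05). RPA14, the smaller stalk subunit, ranged from -0.16 to 0.70 over the arrays, with a mean of 0.40 ± 0.09 (SE, n = 8; limma adjusted p = 0.0024).

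The subunits that polymerases I and III share were both higher in growing cells. RPC40 (YPR110C) and RPC19 (YNL113W) form the assembly platform on which the large subunits of both enzymes are built. RPC40 had log2 ratios of 1.41, 1.34, 1.23, 0.47, 1.06, 0.84, 0.75 and 1.12, with a mean of 1.03 ± 0.09 (SE, n = 8; limma adjusted p = 3.1e-06). RPC19 had 1.09, 0.92, 1.12, 0.21, 0.86, 0.75, 0.62 and 0.93, with a mean of 0.81 ± 0.09 (SE, n = 8; limma adjusted p = 2.1e-05). RPC40 thus was the fifth member at 2-fold or more, beside RPA34, RPA43, RPA49 and RPA12. That made 5 of 36 at least 2-fold higher, against 4.6% of all genes tested, and 0 at least 2-fold lower, against 10.2%.

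Of the 10 polymerase III subunits, 8 were higher and 0 lower, against 40.3% and 42.6% of all genes, with a median of 0.59. The highest was RPC11, the subunit for RNA cleavage and termination, which ranged from 0.51 to 1.00 with a mean of 0.78 ± 0.06 (SE, n = 8; limma adjusted p = 1.1e-06). RPC17 and RPC25, which form the stalk, had means of 0.62 and 0.60. RPC53 and RPC37 form the subcomplex that acts in initiation, termination and reinitiation. RPC37 had a mean of 0.59. RPC53 (YDL150W) had 1.37, 0.38, 1.05, -0.33, 0.25, 1.07, 0.78 and 1.20, the widest range of any member. Its mean was 0.72 ± 0.18 (SE, n = 8; limma adjusted p = 0.0045).

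The initiation trimer of polymerase III was uneven. RPC31 had a mean of 0.58 and RPC34, the subunit that contacts TFIIIB, a mean of 0.22 ± 0.08 (SE, n = 8; limma adjusted p = 0.027). RPC34 no longer passed when any of the arrays recorded at 16, 17, 19, 22 or 24 h was left out. RPC82 ranged from -0.31 to 0.19 and did not pass, with a mean of 0.01 ± 0.06 (SE, n = 8; limma adjusted p = 0.93). RPO31 (YOR116C), the largest subunit, had log2 ratios of 0.63, 0.36, 0.35, -0.13, 0.23, 0.14, 0.01 and 0.29. It was higher in growing cells, at 0.23 ± 0.07 (SE, n = 8; limma adjusted p = 0.0083). RET1 (YOR207C), the second-largest subunit, had 0.25, 0.21, 0.18, -0.38, 0.07, 0.08, -0.12 and 0.11. It was above 0 on 6 of 8 arrays and did not pass, at 0.05 ± 0.07 (SE, n = 8; limma adjusted p = 0.49). Without the array recorded at 20 h its mean was 0.11 and its adjusted p 0.028.

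RPC53 was also the member that differed most between slides. The arrays lay on 2 slides scanned in separate sessions, slide 1 with those recorded at 16, 19, 22, 23 and 24 h and slide 2 with those at 17, 20 and 21 h. On slide 1 RPC53 stood between 0.78 and 1.37, and on slide 2 between -0.33 and 0.38. Within slide 2 its mean was 0.10 (limma adjusted p = 0.66). The values of the slides did not overlap for 4 members, RPC53, RPC37, RPC17 and TFC4, against 19.7% of all genes tested. The part of the slide in these ratios was not tested beyond those values.

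The 8 polymerase I factors had a median log2 ratio of 0.23. Of them 6 were higher and 1 lower, against 40.3% and 42.6% of all genes. RRN3 (YKL125W), which makes polymerase I competent to initiate, was the lower one. It had -0.47, -0.18, -0.41, -0.52, -0.29, -0.39, -0.58 and -0.60, below 0 on all 8 arrays. Its mean was -0.43 ± 0.05 (SE, n = 8; limma adjusted p = 2.3e-05), a 1.35-fold lower level in growing cells. The core factor, which binds the rDNA promoter beside the start site, consists of RRN6, RRN7 and RRN11. RRN11 had the highest mean of all 16 factors, 0.73 ± 0.09 (SE, n = 8; limma adjusted p = 5.5e-05), and ranged from 0.11 to 1.12. RRN6 (YBL014C) had 0.41, 0.43, 0.24, -0.05, 0.33, 0.15, 0.01 and 0.23, with a mean of 0.22. With each array centred on its median in place of loess, RRN6 was at 0.05 and did not pass (limma adjusted p = 0.42). RRN7, the TFIIB-like subunit, had a mean of 0.12 ± 0.05 (SE, n = 8; limma adjusted p = 0.041), and passed in 1 of the 8 fits that left out an array.

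The upstream activating factor, which binds the upstream element of the rDNA promoter, is represented by RRN5, RRN9, RRN10 and UAF30. RRN9 had a mean of 0.34, RRN5 of 0.30 and UAF30 of 0.24, and each was higher in growing cells and above 0 on all 8 arrays. With median centring UAF30 was at 0.02 and did not pass (limma adjusted p = 0.68). RRN5 has 2 probes on the arrays, and the one not used here had a mean of 0.21. RRN10 ranged from -0.44 to 0.29 and did not pass, at -0.10 ± 0.07 (SE, n = 8; limma adjusted p = 0.21). It was lower in growing cells with median centring, at -0.29 (limma adjusted p = 0.0010), and without the array of 23 h, at -0.15 (limma adjusted p = 0.046).

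The 8 polymerase III factors had a median of 0.01, with 3 higher, 1 lower and 4 that did not pass; the share higher is near the 40.3% of all genes. TFIIIC, the factor that reads the internal promoter of transfer RNA genes, is made of TFC1, TFC3, TFC4, TFC6, TFC7 and TFC8. Of these, TFC8 had a mean of 0.34, TFC7 of 0.27 and TFC1 of 0.23, and all 3 were higher in growing cells. With each array centred on its median in place of loess, TFC1 was at 0.10 and did not pass (limma adjusted p = 0.092). TFC6 (0.02), TFC4 (-0.0029) and TFC3 (-0.09) did not pass. TFC6 passed with the scanner software's ratios, at 0.10 (limma adjusted p = 0.024), and TFC3 without the array recorded at 20 h, at -0.12 (limma adjusted p = 0.037). TFIIIB recruits the polymerase itself, and its parts among the members, BRF1 and BDP1, had no higher level in growing cells. Its other part, SPT15, is not a member and was higher in growing cells, at 0.15 (limma adjusted p = 0.017). BRF1 (YGR246C), the TFIIB-like part, had -0.30, -0.13, -0.15, -0.29, -0.15, -0.18, -0.41 and -0.18, below 0 on all 8 arrays. Its mean was -0.22 ± 0.04 (SE, n = 8; limma adjusted p = 0.00086). BDP1 ranged from -0.25 to 0.21 and did not pass, at -0.03 ± 0.05 (SE, n = 8; limma adjusted p = 0.65).

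MAF1 (YDR005C) had the lowest ratio of the 36. Its values were -1.15, -1.02, -1.08, -0.69, -0.91, -0.86, -0.75 and -1.17, so all 8 arrays lay below 0 and the one recorded at 20 h was the least negative. The mean was -0.95 ± 0.06 (SE, n = 8; limma adjusted p = 4.6e-07). Within slide 2, where 3 arrays remain, 7 members were higher, against 22.1% of all genes, and MAF1 alone was lower, against 26.5%. Within slide 1, 25 were higher, against 39.9%, and 3 lower, against 42.9%.

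**Figure D2:**
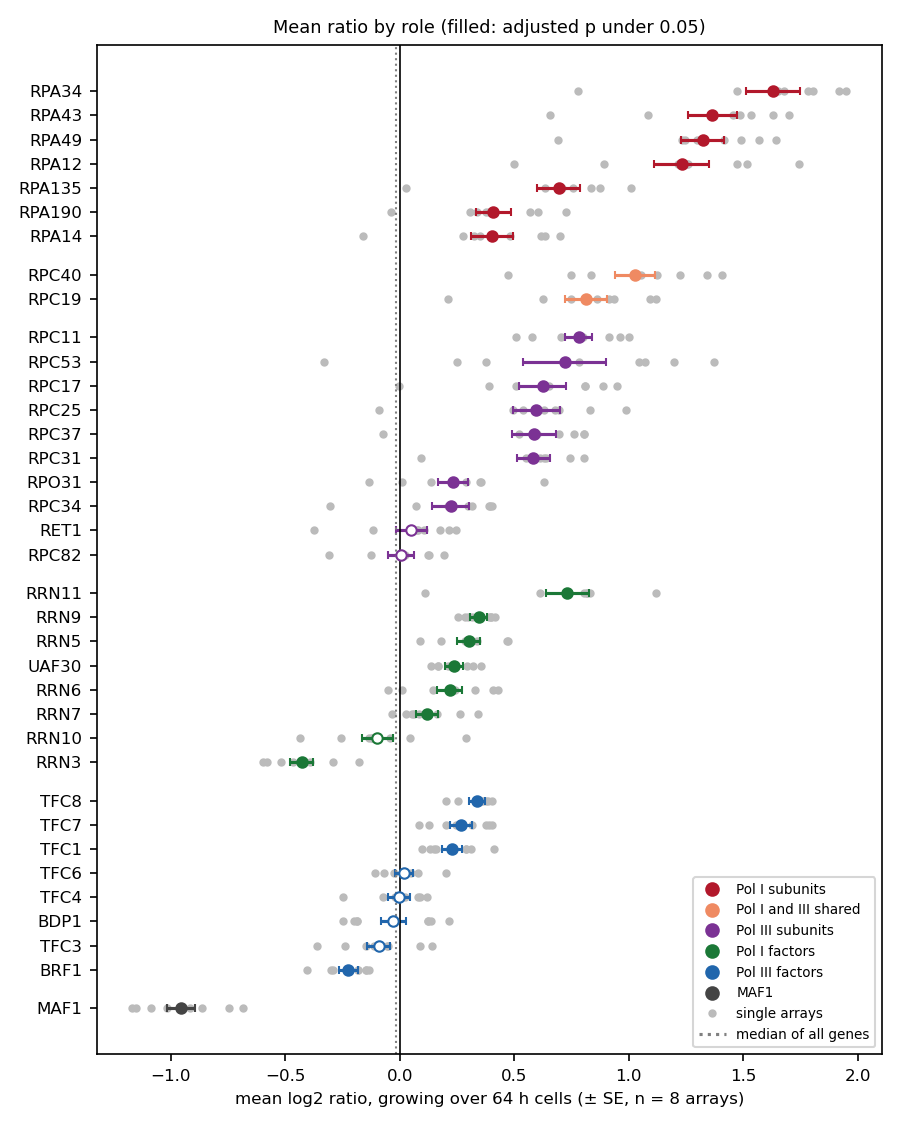
Mean log2 ratio of growing over 64 h cells for each member, grouped by role and ordered within it (large points, with SE over 8 arrays as bars; small grey points are single arrays). Filled points have a limma adjusted p under 0.05, and the dotted line is the median of all genes tested at -0.02. Subunits run from 0.01 (RPC82) to 1.63 (RPA34), factors from -0.43 (RRN3) to 0.73 (RRN11), and MAF1 stands at -0.95.

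Subunits and transcription factors were then set side by side. Of the 19 subunits 17 were higher and 0 lower, while the 16 factors split into 9 higher, 2 lower and 5 that did not pass. Over all genes tested 40.3% were higher and 42.6% lower. With each array centred on its median in place of loess, the same 17-to-0 count was found for subunits, and 5 factors were higher and 3 lower; of all genes 41.1% were then higher and 40.4% lower. The median of the mean log2 ratios was 0.62 for subunits and 0.17 for factors. On single arrays the subunit median was 0.95, 0.71, 0.81, -0.0036, 0.57, 0.75, 0.61 and 0.81 in order of recorded time. The factor median was 0.16, 0.09, 0.18, 0.07, 0.14, 0.17, 0.15 and 0.22. The subunits therefore stood above the factors on 7 of 8 arrays, by 0.42 to 0.79, and 0.07 below them on the array recorded at 20 h. The difference averaged 0.50 ± 0.26 (SD, n = 8). No test was made of it, since the genes were chosen and are not replicates.

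On the array recorded at 20 h the subunit and factor medians nearly met. It held the lowest value of 18 of 19 subunits and of 7 of 16 factors, or 25 of 36 members in all, against 23.6% of all genes tested. On that array 9 of 19 subunits and 9 of 16 factors lay above 0. On the other 7 arrays 17 to 19 subunits and 9 to 14 factors did. The glucose-fed markers were also lowest there, all 3 of 3, and the part of that in the members' values was not tested. With these files of 20 h and 24 h dropped, 27 members were higher, against 40.6% of all genes, and 4 lower, against 43.3%.

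**Figure D3:**
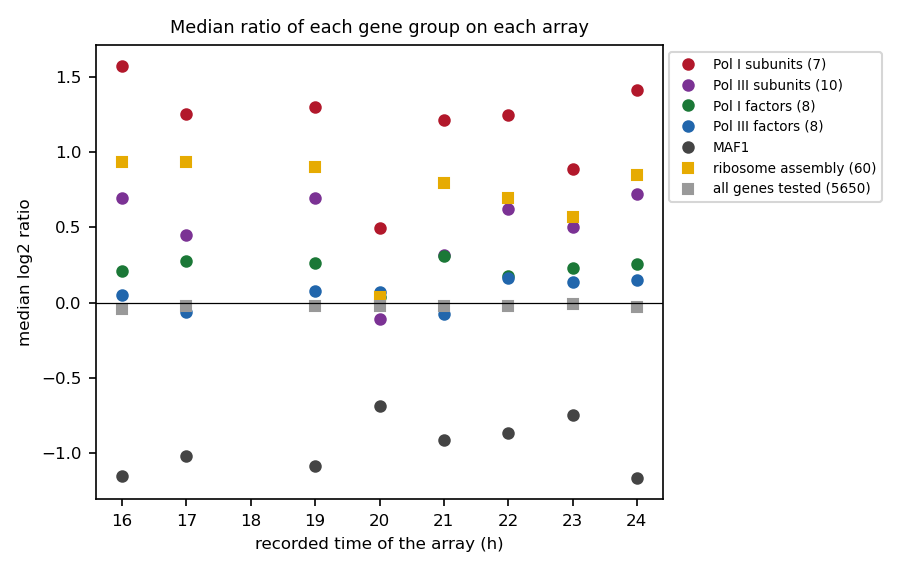
Median log2 ratio of each gene group on each array (vertical axis) against the recorded time of the array in h; the number of genes is in the legend, and the grey squares are all genes tested. On the array recorded at 20 h the polymerase I subunits stood at 0.50, against 0.89 to 1.57 on the others, and the polymerase III subunits at -0.11, against 0.32 to 0.72.

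Members that hold the same place in both machineries allow a direct comparison within each array. Both genes of a pair are set against the same 64 h RNA with the dyes not swapped. The test over arrays thus leaves out the spread of 64 h cells and keeps any dye bias of either probe. It also takes the 8 arrays as independent, which the labels do not state. Of 6 such pairs, 4 stood higher on the polymerase I side, 1 stood higher on the polymerase III side and 1 did not pass. RPA43 exceeded RPC25, its stalk counterpart, by 0.77 ± 0.11 on the log2 scale (SD, n = 8), on 8 of 8 arrays. RPA135 exceeded RET1 by 0.64 ± 0.13, on 8 of 8 arrays, and RRN7 exceeded BRF1 by 0.34 ± 0.13, also on 8 of 8. These 3 differences and that of RPA14 and RPC17 each had an exact sign-flip permutation p of 0.0078, the smallest that 8 arrays can give in a two-sided test, and 0.012 after Benjamini-Hochberg adjustment over the 6 pairs. RPA14, the other stalk subunit, ran the opposite way: RPA14 minus RPC17 was -0.22 ± 0.12, below 0 on 8 of 8 arrays; with median centring that difference was -0.02 and did not pass.

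RPA12 exceeded RPC11 by 0.45 ± 0.31 (SD, n = 8; exact sign-flip permutation p = 0.016, adjusted p = 0.019), on 7 of 8 arrays. The largest subunits did not pass: RPA190 exceeded RPO31 by 0.18 ± 0.21 (SD, n = 8; exact sign-flip permutation p = 0.055, adjusted p = 0.055). The exception among its 8 arrays was the one recorded at 16 h, at -0.29. Without that array the difference was 0.24 and its adjusted exact p 0.019. It also passed with the scanner software's ratios, at 0.25, and with median centring, at 0.28.

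**Figure D4:**
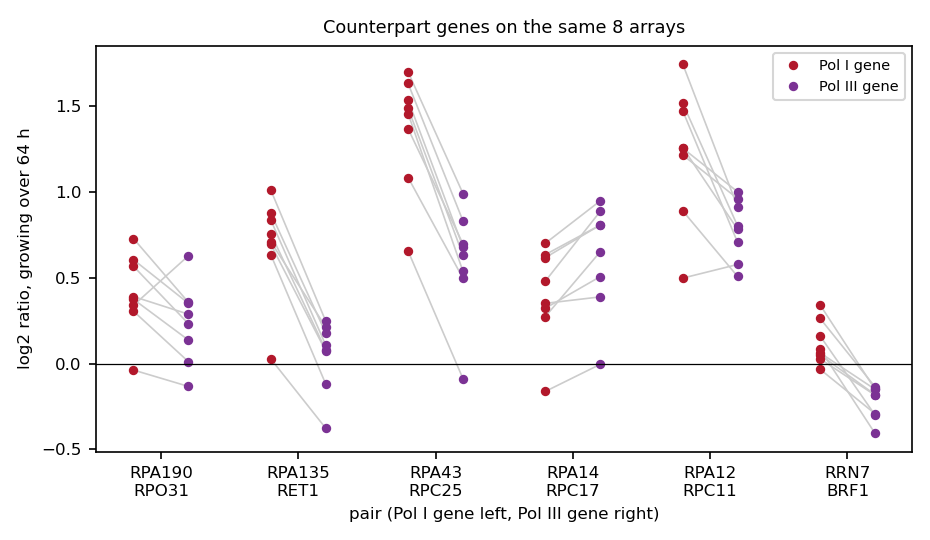
Log2 ratio of growing over 64 h cells (vertical axis) for 6 pairs of counterpart genes, the polymerase I gene on the left and the polymerase III gene on the right of each pair; grey lines join values of the same array, 8 per pair. The lines slope down on all 8 arrays for RPA135 and RET1, RPA43 and RPC25, and RRN7 and BRF1, and slope up on all 8 for RPA14 and RPC17.

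RPA43 and RPA190 are neighbours on chromosome XV, with adjacent systematic names on opposite strands, YOR340C and YOR341W. Their ratios nonetheless differed. RPA43 stood 0.69 to 1.36 above RPA190 on the log2 scale, on 8 of 8 arrays, with a mean difference of 0.96 ± 0.24 (SD, n = 8). This comparison was chosen after the values were seen and has no test. Among subunits, shorter genes tended to have the higher ratio, with Pearson's r of -0.42 and Spearman's rho of -0.35 across 19 genes of 333 to 4995 bases. For the factors the values were -0.16 and -0.41 across 16 genes, and over 5485 genes tested with a known length -0.04 and -0.13. All these points share the same 8 arrays and the same 64 h RNA, so the correlations are descriptions.

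The second comparison asked whether the members changed over the recorded hours of growth. With the files as recorded, limma called 0 members, as it called 0 of all genes tested (0% falling and 0% rising), and 0 members had an unadjusted p under 0.05, against 385 of all genes. On the 6 arrays whose times are not in dispute, RPC40 and RPO31 fell and 0 members rose, against 3.17% of all genes falling and 5.2% rising. With the slide as a block in that fit, 8 members fell (RPA43, RPA12, RPC40, RPC19, RPO31, RPC53, RPC25 and RRN6), against 9.1% of all genes, and MAF1 and TFC3 rose, against 11.9%. With the files recorded at 20 h and 24 h exchanged, 10 members fell and 2 rose, against 8.58% and 10.5%, and with the block 15 fell and 2 rose, against 13.3% and 16.9%. Those that fell without the block were RPA49, RPA43, RPA34, RPA12, RPC40, RPC19, RPO31, RET1, RPC25 and the core factor gene RRN6. Those that rose, with or without it, were MAF1 and TFC3, the largest TFIIIC gene. With the files exchanged and 1 array left out, the falling members numbered 6 without the array recorded at 16 h, 2 without that recorded at 20 h, 4 without that of 23 h and 8 to 10 without any other. The rising members, MAF1 and TFC3, numbered 2 without the array of 17 h or that recorded at 24 h, and 0 or 1 without any other. As recorded, HXT1 had log2 ratios of 4.80, 4.64, 4.18, 0.09, 2.94, 2.03, 0.62 and 4.13 in order of time. HXT3 had 5.58, 5.43, 5.19, 0.34, 4.50, 3.43, 2.04 and 4.97. With the files of 20 h and 24 h exchanged, both declined at every step. No other marker listed changed in 1 direction at every step in either order. Saturated spots may limit some of these steps, since HXT3 had them in Cy5 on 3 arrays. In Cy3, HSP12 had them on 3 arrays, ADH2 on 6, and HSP30 and PCK1 on all 8. The files do not say which of these time assignments is right, it was not tested, and the time results depend on it.

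RPC40 changed fastest of the members called on the 6 arrays, by -0.094 ± 0.016 per h on the log2 scale (SE, n = 6; limma adjusted p = 0.010). With the files exchanged its slope was -0.109 ± 0.015 per h (SE, n = 8; limma adjusted p = 0.0013). RPO31 had -0.072 ± 0.017 per h on the 6 arrays (SE, n = 6; limma adjusted p = 0.036) and -0.079 ± 0.014 with the files exchanged (SE, n = 8; limma adjusted p = 0.0044). Its undisputed values of 0.63, 0.36, 0.35, 0.23, 0.14 and 0.01 at 16, 17, 19, 21, 22 and 23 h form an unbroken decline. On the 6 arrays the call for RPC40 was lost without the array of 22 h or of 23 h, and that for RPO31 without the array of 16, 19, 22 or 23 h. The slopes themselves stayed between -0.102 and -0.088 for RPC40 and between -0.084 and -0.057 for RPO31.

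RPA12 had the steepest slope with the files exchanged, -0.113 ± 0.027 per h (SE, n = 8; limma adjusted p = 0.018), and -0.081 on the 6 arrays, where it did not pass (limma adjusted p = 0.081) but did with the slide as a block, at -0.088 (limma adjusted p = 0.015). RRN6, RPC19 and RET1 followed among the smallest p-values, with exchanged slopes of -0.057, -0.086 and -0.064 per h. RRN6 was the 1 factor of 16 that fell. MAF1 moved the other way, by 0.055 ± 0.016 per h (SE, n = 8; limma adjusted p = 0.036) with the files exchanged and by 0.049 on the 6 arrays (limma adjusted p = 0.10; 0.037 with the slide as a block), towards a smaller difference from 64 h cells. TFC3, below 0 on 6 of 8 arrays, had 0.052 ± 0.014 per h (SE, n = 8; limma adjusted p = 0.026) and 0.054 on the 6 arrays (limma adjusted p = 0.097; 0.044 with the slide as a block).

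The slopes of subunits and factors were set side by side in the same way. On the 6 arrays all 19 subunit slopes were below 0, from -0.094 to -0.014 per h, and 6 of 16 factor slopes were. With the files exchanged 19 of 19 subunit and 8 of 16 factor slopes were below 0, and as recorded 17 of 19 and 4 of 16. The median slope of the subunits was -0.043 per h on the 6 arrays and -0.076 after the exchange, against 0.010 and 0.0011 for the factors. The median over all genes tested was 0.0018 and 0.0031. Genes measured on the same arrays share those arrays' errors, so these counts are a description. The authors' deposited table was refitted here by the same model. Its columns of 20 h and 24 h match the scanner files of 24 h and 20 h. This fit thus repeats the exchanged one on the same samples with another normalization, and is not separate evidence. In it 16 members fell and 2 rose, against 18.5% of all genes in the table falling and 15.9% rising. Without its 20 h and 24 h columns 8 members fell and 0 rose, against 9.75% and 7.97%.

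**Figure D5:**
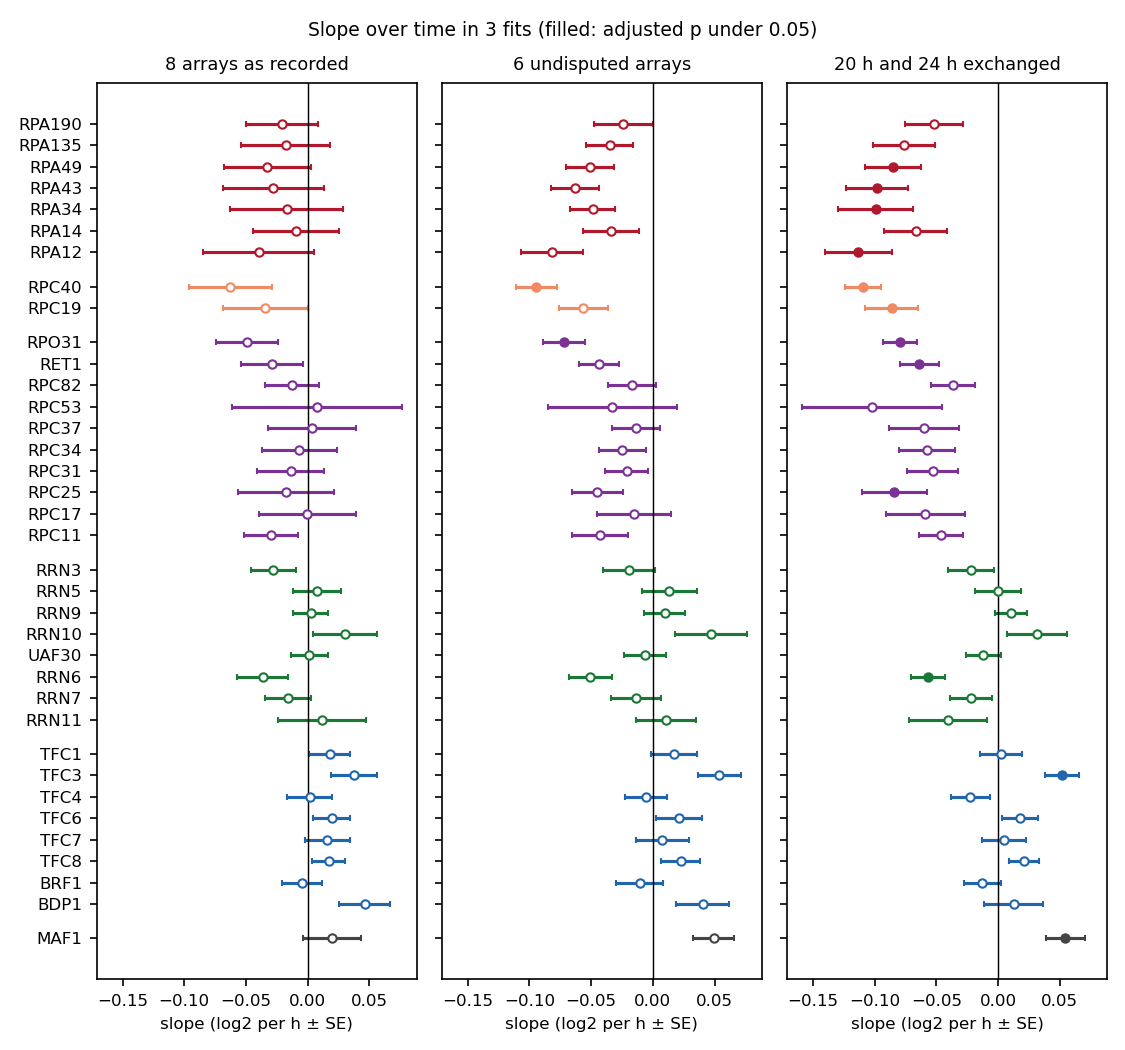
Slope of the log2 ratio on time (horizontal axis, log2 per h, with SE bars) for each member in 3 fits: 8 arrays as recorded, 6 arrays with those of 20 h and 24 h dropped, and the files of 20 h and 24 h exchanged. Filled points have a limma adjusted p under 0.05: 0 in the first fit, RPC40 and RPO31 in the second, and 10 below 0 and 2 above 0 in the third.

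Other genes of the same pathways were measured on the same arrays. The 5 small subunits that all 3 nuclear polymerases share were 5 of 5 higher in growing cells, against 40.3% of all genes tested. Their median was 0.76, from RPO26 at 0.58 to RPB8 at 1.15. Of the 7 subunits used by polymerase II alone, 6 were higher and 1 lower, against 40.3% and 42.6%, with a median of 0.20. Its largest subunit, RPO21, was the lower one at -0.37 ± 0.06 (SE, n = 8; limma adjusted p = 0.00022), and RPB3 the highest at 0.56. On the array recorded at 20 h, 1 of these 7 had its lowest value, against 18 of the 19 subunits of polymerases I and III. So had 4 of the 5 subunits shared by all polymerases, 57 of 60 ribosome assembly genes and 23.6% of all genes tested. Of 10 further factors of the rDNA and the 5S genes, 4 were higher and 1 lower; the share higher is near the 40.3% of all genes. PZF1, which encodes TFIIIA of the 5S gene, led at 0.50, and NHP6B, a chromatin protein, was lowest at -0.34.

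Of 12 genes for kinases and phosphatases that act on Maf1 or polymerase III, 7 were higher, 4 lower and 1 did not pass. Over all genes tested 40.3% were higher and 42.6% lower, so most genes were called. CKA1, a catalytic subunit of casein kinase II, led at 0.70 ± 0.05 (SE, n = 8; limma adjusted p = 5.2e-07). KNS1, a kinase of polymerase III subunit Rpc53, was lowest at -1.39 ± 0.20 (SE, n = 8; limma adjusted p = 0.00013). KNS1 stood between -2.03 and -1.72 on the arrays of slide 1 and between -0.86 and -0.29 on those of slide 2, so its slides did not overlap either.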

How the data were processed

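Each array compared RNA of growing cells (Cy5) with RNA of 64 h cells (Cy3). Spot intensity values in the deposited scanner files come, per the file headers, from Agilent Feature Extraction 10.5.1.1, which also made the deposited log10 ratio. The authors' value table is on a log2 scale and centred per gene, as its values show, with a normalization not given in the sources used here. Median signals were corrected with normexp (offset 50) and normalized by loess in limma 3.58.1 (R 4.3.3). Control and outlier spots were left out, and spots of a probe averaged. Of a gene's probes the brightest was used. The 5650 genes tested had all spots above background, in Cy5 or in Cy3, on 4 or more arrays. Symbols come from the R64 table, which matched 5737 of 6225 systematic names; the files use another build, so no coordinates are given. Lines on centred time gave mean ratios and slopes, with Benjamini-Hochberg adjustment over all genes tested and a threshold of 0.05. Counterpart pairs had an exact two-sided sign-flip permutation test over arrays. Alternatives were other ratio scalings, filters, the slide as a block or alone, arrays left out and the authors' table. The fits were tested on simulated data with 100 changed genes among 5650. They recovered 52 mean log2 ratios of 0.25 and 89 of 0.5, with 11 false calls. Of slopes they recovered 4 of 0.05 per h and 54 of 0.1 per h, with 5 false calls. In the mean ratios of the real arrays 40.3% of genes were higher and 42.6% lower. The adjusted threshold for means was therefore looser there, and recovery can differ from the simulated one. A member that did not pass may still hold a change, and the simulation does not give the limit of its size. All members are named; values on every array are given for the largest and second subunits, the 3 highest and 3 lowest members, MAF1, RRN3 and up to 6 members with changing slopes, with the array values of RPC53 added after they were seen. Members and lists were chosen with earlier results of these data known. Promoter sequences were not used here.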

Additional observations from a re-analysis of the deposited data

Results flagged for a closer look

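Each of 48 values with 8 arrays (36 members, the contrast of subunits with factors, the 6 pairs and the median of each of 5 roles) was checked for an array far from the rest by Dixon's criterion. Chance alone gives about 1 in 20 such cases, and 8.04% of all genes tested had one. Of the members, 7 did, all of them with a low value on the array recorded at 20 h, as had 3.12% of all genes tested. On that array RPA135 was at 0.0278, against 0.63 for the next lowest array, RPA49 at 0.69 against 1.23, and RPA34 at 0.78 against 1.47. RPC37 was at -0.0749 against 0.52, RPC34 at -0.30 against 0.07, RPC31 at 0.0934 against 0.55, and RPC25 at -0.0882 against 0.50. The median of the subunits minus that of the factors was -0.0719 there, against 0.42 for the next lowest. The file recorded for 20 h is one of the pair that match each other's columns in the authors' table, and the glucose-fed markers are also lowest on it; their part in these values was not tested.

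One further value stood apart on another array. RPA190 minus RPO31 was -0.29 on the array recorded at 16 h, against 0.10 for the next lowest.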

How the results depend on the processing

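Members higher (26) and lower (3) in growing cells stayed within 1.5 times those counts under the alternatives run, except within slide 2 (3 arrays), where 7 were higher, 1 lower and 3 at least 2-fold higher. With 1 array left out, 24 to 27 were higher, 3 to 4 lower and 4 to 5 at least 2-fold higher. Of 323 member means under the other alternatives, 282 kept direction and side of the threshold and 26 lost their call, 21 of them within slide 2; median centring ended those of UAF30, RRN6, RRN7 and TFC1. The 4 calls gained were TFC6 with the scanner's ratios, RRN10 with median centring, and RET1 and TFC3 without the arrays of 20 h and 24 h. The 11 reversed means all belong to members that did not pass. With the scanner's ratios RRN10 was 0.0498, TFC3 0.0337, TFC4 0.10 and BDP1 0.11, and with median centring RPC82 was -0.13. Within slide 1 TFC4 was 0.0637 and BDP1 0.0828, within slide 2 RET1 was -0.0294, RPC82 -0.0188 and TFC6 -0.0433, and without the arrays of 20 h and 24 h TFC4 was 0.0222. With 1 array left out, RPC82 ranged from -0.0205 to 0.0511, TFC4 from -0.0205 to 0.0319, TFC6 from -0.0051 to 0.0394 and BDP1 from -0.0621 to 0.0041.

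The difference of the subunit and factor medians, 0.46 over the 8 arrays, lay between 0.28 and 0.60 under the alternatives and between 0.41 and 0.52 with 1 array left out. Falling members numbered 0 as recorded, 2 on the 6 arrays, 10 with files exchanged, 8 and 15 in these fits with the slide as a block, and 16 and 8 in the authors' table with and without its 20 h and 24 h columns. Rising members numbered 2 with files exchanged, in both fits with the slide as a block and in the authors' whole table. With 1 array left out, 0 to 3 fell on the 6 arrays, and with files exchanged 2 to 10 fell and 0 to 2 rose. The subunit minus factor slope, -0.027 per h as recorded, was -0.040 with the slide as a block, -0.059 within slide 2, -0.053 on the 6 arrays and -0.077 with files exchanged. With the block these last were -0.052 and -0.074, and in the authors' table -0.084, or -0.059 without its 20 h and 24 h columns. With 1 array left out it ranged from -0.053 to -0.015. As recorded, leaving out 1 array moved the slope of RPA43 between -0.068 and 0.0020, of RPA12 between -0.087 and 0.0082, of RPC25 between -0.050 and 0.027 and of RPA34 between -0.055 and 0.0055. The causes were not tested. Pairs that differed numbered 5 to 6.

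No paired analysis was possible because the arrays form a single group and the 64 h RNA is the other channel of each. The promoter motif search planned for these genes was not run, since no promoter sequences were used here. Alternatives that left out an array in the 6-array and exchanged fits, and the authors' table without 2 columns, were chosen after seeing the data.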

Other observations

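The mRNA of ribosome assembly factors, which process the rRNA that polymerase I makes, was higher in growing cells for 58 of 60 genes listed, with a median log2 ratio of 0.72, against 40.3% of all genes higher. NOP7, a factor of the large subunit, had the highest mean at 1.44 ± 0.15 (SE, n = 8; limma adjusted p = 1.4e-05), and SPB4, a helicase, the lowest at -0.0094. The list's median by array was 0.94, 0.93, 0.90, 0.04, 0.79, 0.69, 0.57 and 0.85 in order of recorded time. On the 6 undisputed arrays 14 of these genes fell and 0 rose, against 3.17% and 5.2% of all genes tested. With the files exchanged 37 fell and 0 rose, against 8.58% and 10.5%.

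Of 7 transcriptional regulators of ribosome genes, 5 were lower in growing cells, against 42.6% of all genes, 0 higher and 2 did not pass. CRF1, a corepressor of ribosomal protein genes, was lowest at -1.65 ± 0.05 (SE, n = 8; limma adjusted p = 5.1e-09), and IFH1, a coactivator of the same genes, was highest at -0.05. TOD6, a repressor of ribosome biogenesis genes, did not pass in its mean. It fell by 0.124 per h on the 6 arrays (limma adjusted p = 0.010) and by 0.162 with the files exchanged (limma adjusted p = 0.0028).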
